A study of Homo sapiens with 17 samples.

Results

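The change of anti-ac4C pull-down over control pull-down after TDP43 knockdown was measured in 11 acRIP-seq libraries out of the 17 in the series. HEK293T cells, a human embryonic kidney line, were either labelled WT or treated with siRNA against TDP43 (siTDP43), the RNA-binding protein encoded by TARDBP. No control siRNA is named in the labels of the WT samples, which leaves the siRNA treatment itself part of the contrast. Poly(A) RNA from each genotype was pulled down with an antibody against N4-acetylcytidine (IP) in 3 libraries, and with immunoglobulin G (IgG) in 2 WT and 3 siTDP43 libraries. The input RNA of both genotypes, 3 libraries each, entered the same fit. Input levels are given beside the pull-downs for some genes only. For each gene the quantity described is the log2 ratio of IP to IgG in siTDP43 minus the same ratio in WT, called here the change of enrichment. It was tested in 15165 genes. In 9529 of them, 62.8%, no pull-down group was at the count floor, where a group is at the floor if all of its libraries held at most 3 counts of the gene. The other 5636 genes were kept apart, since a ratio against such a group is a bound.

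N4-acetylcytidine (ac4C) is a cytidine that carries an acetyl group on the base, and NAT10 is the enzyme that writes it on human RNA. In acRIP-seq an antibody against ac4C enriches RNA, and the IgG pull-down measures what sticks to beads and to an antibody of no given target. The study's methods describe no fragmentation before the pull-down. TDP43 is an RNA-binding protein best known for its part in splicing and for its aggregates in amyotrophic lateral sclerosis. The change of enrichment has 4 measured parts, the IP and IgG levels of each genotype, and a gene can gain or lose enrichment through any of them. The IP and IgG levels are therefore printed for many of the named genes.

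The sense strands of the siRNAs against TARDBP are shown because the genotype contrast rests on them. Capitals mark the 19 bases that match TARDBP coding sequence in exon 2 (hg19 chr1:11073948-11073966, plus strand) and in exon 4 (chr1:11078873-11078891, plus strand).

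siTDP43 sense strand 1: GGCUGGUAGAAGGAAUUCUtt

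siTDP43 sense strand 2: GUCACAGCGACAUAUGAUAtt

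TARDBP had 150, 157 and 151 CPM (counts per 1000000 of the library's TMM-scaled total) in the WT input and 98.7, 102 and 106 CPM in the siTDP43 input. All siTDP43 inputs were below all WT inputs, and the level was 33.0% lower (log2 −0.58 ± 0.08 SE, edgeR adjusted p = 8.63e-08). In the pull-downs TARDBP stood at 105, 110 and 110 CPM in WT IP, 82.4 and 90.3 in WT IgG, 67.5, 60.6 and 64.0 in siTDP43 IP and 88.1, 66.0 and 58.0 in siTDP43 IgG. Its own change of enrichment was −0.47 ± 0.14 (adjusted p = 0.00462).

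The pull-down libraries differed in depth between the genotypes. The WT IP libraries held between 19615316 and 21066215 counts and those of siTDP43 IP between 8610070 and 15736165. For IgG the totals lay between 9022250 and 9466855 in WT and between 3013989 and 3436811 in siTDP43. Genes at the floor numbered 766 (5.05%) in WT IP, 2838 (18.7%) in WT IgG, 2269 (15.0%) in siTDP43 IP and 4845 (31.9%) in siTDP43 IgG. Summed levels of the 5 genes taken as HEK293 markers (LIN28B, NEFL, NEFM, PAX2 and VIM) were 1012 to 1037 CPM in WT input and 545 to 573 CPM in siTDP43 input. The largest part of this sum was VIM, at 843.6 to 858 CPM and 261 to 277 CPM. NEFM (67.6 to 76.8 and 41.6 to 44.02 CPM) and PAX2 (0.34 to 1.48 and 0.064 to 0.16 CPM) were also lower in siTDP43. LIN28B (30.3 to 36.4 and 58.1 to 61.3 CPM) and NEFL (69.4 to 72.5 and 184 to 194 CPM) were higher in siTDP43. The part of these differences in the pull-downs was not tested. The summed level of 10 defining genes of other cell types, such as PTPRC, ALB and INS, was 8.09 to 9.80 CPM and 7.82 to 9.86 CPM, and 4 and 6 of them had at most 3 counts in every input of WT and siTDP43. In bulk RNA, fewer cells with a transcript and less of it per cell cannot be told apart. The ac4C probe that the study's protocol adds to the RNA was not used here, so all values are relative within a library, and replicates are libraries whose separate cultures are not stated.

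Among the 9529 genes that had all pull-down groups above the floor, enrichment over IgG was higher after knockdown in 3983 (41.8%) and lower in 3224 (33.8%), at an adjusted p under 0.05. The libraries' ratios did not overlap between the genotypes in 6603 genes (69.3%). Over all 15165 genes tested, including those at the floor, 34.9% were higher and 25.9% lower (60.8% in all), and the ratios did not overlap in 69.4%. With 75.6% of genes called in one direction or the other, a call by itself was the common outcome, and classes are read below against these shares. The median change over all genes was 0.18 with quartiles of −1.07 and 1.34. This median depended on scaling and was −0.05 with DESeq2 size factors, under which 3484 genes were higher and 3713 lower. Class medians are therefore given relative to the median of all genes.

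Within WT, 2304 genes (24.2%) were more than 2-fold higher in IP than in IgG and 1790 (18.8%) more than 2-fold lower. Within siTDP43 these were 2403 (25.2%) and 1393 (14.6%). Genes enriched in WT and depleted in siTDP43 numbered 440 (4.62%), and 468 (4.91%) went from depleted to enriched. Another 678 genes were enriched over IgG in both genotypes, and their median change was −0.03. Both pull-downs moved: IP was called higher after knockdown in 4153 genes (43.6%) and lower in 3759 (39.4%), and IgG was higher in 3607 (37.9%) and lower in 4095 (43%). The input itself was called higher in 3829 of these genes (40.2%) and lower in 3539 (37.1%). The quartiles of the IgG change, −1.33 and 1.05, were wider apart than those of the IP change, −0.94 and 0.96.

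RBBP6, which encodes a zinc finger protein of the mRNA 3' end processing machinery with E3 ubiquitin ligase activity, lost its enrichment over IgG in siTDP43 (hg19 chromosome 16, 24550908 to 24584183, plus strand). Its levels were 1004, 1152 and 1159 CPM in WT IP, 53.1 and 72.0 in WT IgG, 29.9, 30.6 and 33.4 in siTDP43 IP and 47.4, 39.7 and 31.3 in siTDP43 IgG. WT IP stood far above every other pull-down, whereas the siTDP43 IP and IgG libraries overlapped. Enrichment went from a log2 ratio of 4.14 in WT to −0.34 in siTDP43, a change of −4.48 ± 0.18 (adjusted p = 4.9e-22). Its input level was 18.4, 20.5 and 19.5 CPM in WT and 12.3, 12.8 and 10.9 CPM in siTDP43.

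ZFP36L2, an AU-rich element binding protein that promotes mRNA decay, turned from enriched to depleted (chromosome 2, 43449541 to 43453745, minus strand). It had 26.1, 25.7 and 26.2 CPM in WT IP, 6.79 and 9.47 in WT IgG, 12.5, 12.2 and 14.2 in siTDP43 IP and 29.4, 31.6 and 32.7 in siTDP43 IgG. After knockdown its IP level was lower and its IgG level higher, with no overlap in either arm. The log2 ratio went from 1.68 to −1.28, a change of −2.96 ± 0.28 (adjusted p = 1.05e-11). In the input it stood at 9.95, 7.17 and 6.76 CPM in WT and 2.93, 3.48 and 3.26 CPM in siTDP43.

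The other transcripts of the panel, which the study followed one by one, moved in different arms. RRBP1, a ribosome-binding protein of the endoplasmic reticulum (chromosome 20, 17594323 to 17662928, minus strand), was at 1144, 1182 and 1228 CPM in WT IP, 77.7 and 98.9 in WT IgG, 12.6, 12.6 and 6.98 in siTDP43 IP and 36.7, 43.7 and 36.6 in siTDP43 IgG. Its change was −5.56 ± 0.22 (adjusted p = 2.61e-22), and siTDP43 IP was below siTDP43 IgG in all libraries. LAMP1, a lysosomal membrane glycoprotein (chromosome 13, 113951469 to 113977741, plus strand), was at 92.8, 100 and 91.9 CPM in WT IP and 31.6 and 40.6 in WT IgG, against 18.1, 22.3 and 20.1 in siTDP43 IP and 30.8, 38.8 and 31.0 in siTDP43 IgG. Its change was −2.13 ± 0.23 (adjusted p = 1.64e-10), with IgG levels that overlapped between the genotypes.

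UPF3B, a factor of nonsense-mediated mRNA decay (chromosome X, 118967989 to 118986991, minus strand), kept a positive log2 ratio in both genotypes. It had 1894, 2155 and 2218 CPM in WT IP, 416 and 459 in WT IgG, 95.3, 86.2 and 102 in siTDP43 IP and 42.96, 40.5 and 46.6 in siTDP43 IgG. Both pull-downs were lower after knockdown, IP by a log2 difference of −4.47 and IgG by −3.33. The ratio went from 2.25 to 1.12, a change of −1.13 ± 0.13 (adjusted p = 5.53e-10), the smallest fall of the panel.

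GAPDH and EEF1A1, a glycolytic enzyme and a translation elongation factor, rose. GAPDH (chromosome 12, 6643585 to 6647537, plus strand) had 1629, 1524 and 1407 CPM in WT IP, 2836 and 2633 in WT IgG, 2859, 2759 and 2819 in siTDP43 IP and 3553, 3565 and 3407 in siTDP43 IgG. It stayed below IgG in both genotypes, with a change of 0.53 ± 0.07 (adjusted p = 4.91e-08). EEF1A1 (chromosome 6, 74225473 to 74230755, minus strand) had 935, 1179 and 1243 CPM in WT IP, 2776 and 3123 in WT IgG, 8478, 6736 and 6112 in siTDP43 IP and 5479, 5448 and 5016 in siTDP43 IgG. Its ratio crossed from −1.40 to 0.42, a change of 1.82 ± 0.12 (adjusted p = 1.28e-15).

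**Figure D1:**
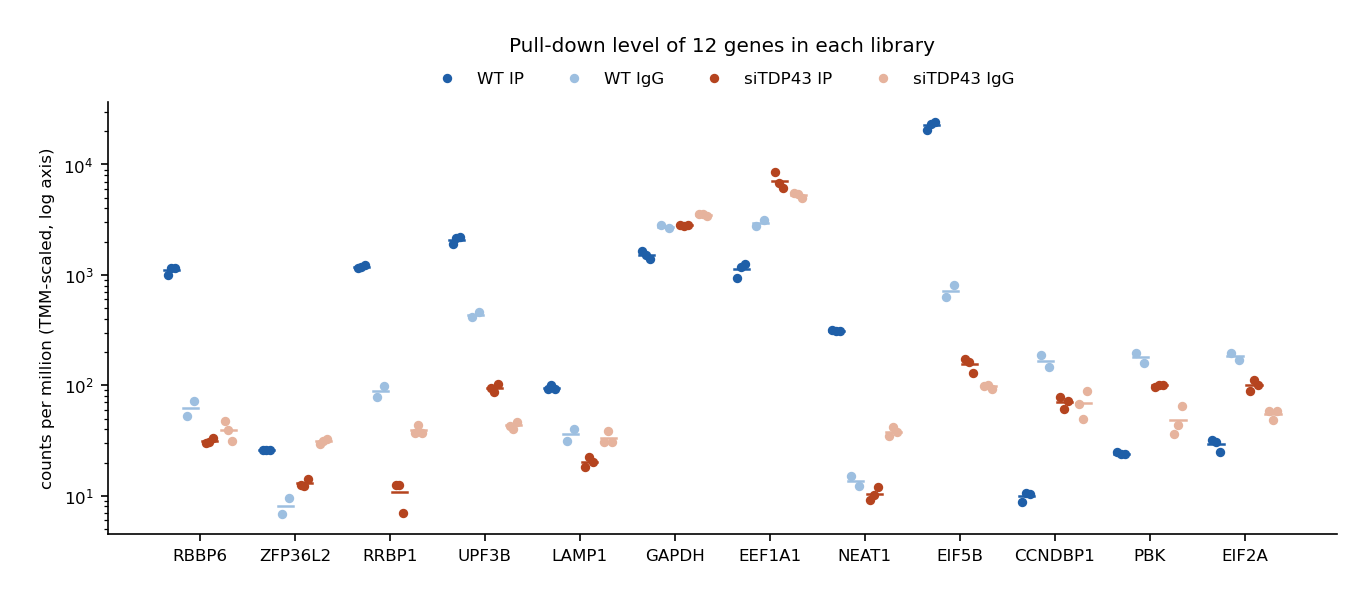
Level of 12 genes in each pull-down library (TMM-scaled CPM on a log axis; 1 point a library, bars at the group mean): the panel of 7 and 5 of the genes with the largest changes. RBBP6, RRBP1, LAMP1 and NEAT1 stand above IgG in WT IP alone, UPF3B and EIF5B drop in both pull-downs, and EEF1A1, PBK and EIF2A cross from below to above IgG.

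The largest falls among genes with a mean of at least 100 counts in every pull-down group were in NEAT1 (−6.38), RRBP1, CEP164 (−5.13), SEZ6L2 (−4.86), ERICH1 (−4.52), ATRX (−4.50), RBBP6, C12orf32 (−4.43), TRAF3IP1 (−4.36) and EIF5B (−4.31). NEAT1, the long non-coding RNA that scaffolds paraspeckles, had 315, 309 and 310 CPM in WT IP and 15.1 and 12.3 in WT IgG, against 9.21, 10.1 and 11.96 in siTDP43 IP and 34.9, 41.7 and 37.7 in siTDP43 IgG. Its IP level fell and its IgG level rose, without overlap. EIF5B, the GTPase that joins the ribosomal subunits at initiation, had 20718, 23340 and 24415 CPM in WT IP and 631 and 804 in WT IgG. In siTDP43 it had 173, 164 and 130 CPM in IP and 99.5, 101 and 92.9 in IgG, so it stayed above IgG while its ratio dropped from 4.99 to 0.68.

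ATRX, a chromatin remodeller, resembled RBBP6 in that a WT IP level far above all others was lost. It had 1759, 1938 and 1974 CPM in WT IP, 112 and 122 in WT IgG, 46.6, 48.0 and 48.6 in siTDP43 IP and 62.0, 71.2 and 66.9 in siTDP43 IgG. CEP164, a protein of the distal appendages of centrioles, differed from it in the control arm: WT IgG was at 10.3 and 10.5 CPM and siTDP43 IgG at 58.4, 75.7 and 58.0 CPM. Its IP level went from 157, 150 and 155 CPM to 30.7, 24.3 and 25.4 CPM.

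The largest rises under the same rule were in CCNDBP1 (4.09), TFB1M (3.99), PBK (3.93), GALNT11 (3.91), ATG5 (3.62), EIF2A (3.51), PPA2 (3.33), CSE1L (3.31), ASNSD1 (3.23) and GUCY1B3 (3.22). CCNDBP1, which encodes a cyclin D binding protein, had 8.76, 10.6 and 10.4 CPM in WT IP, 186 and 146 in WT IgG, 78.4, 61.2 and 71.9 in siTDP43 IP and 67.6, 49.4 and 89.7 in siTDP43 IgG. Its log2 ratio of IP to IgG was −4.07 in WT and 0.03 in siTDP43. ATG5, needed for autophagosome formation, had the same form: 9.34, 11.5 and 10.8 CPM in WT IP, 125 and 126 in WT IgG, 57.4, 51.7 and 63.0 in siTDP43 IP and 63.9, 54.2 and 47.7 in siTDP43 IgG.

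PBK, a mitotic kinase, passed from depleted to enriched. It had 24.9, 23.7 and 23.7 CPM in WT IP, 198 and 160 in WT IgG, 96.3, 101 and 102 in siTDP43 IP and 36.3, 43.7 and 64.8 in siTDP43 IgG. EIF2A, an initiation factor outside the eIF2 complex, moved likewise from 32.2, 30.6 and 25.1 CPM in WT IP and 198 and 169 in WT IgG to 89.5, 111 and 101 in siTDP43 IP and 58.0, 48.6 and 59.1 in siTDP43 IgG. TFB1M, a mitochondrial rRNA methyltransferase, shares exonic positions with TIAM2 in the table, so its reads could belong in part to that gene.

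**Figure D2:**
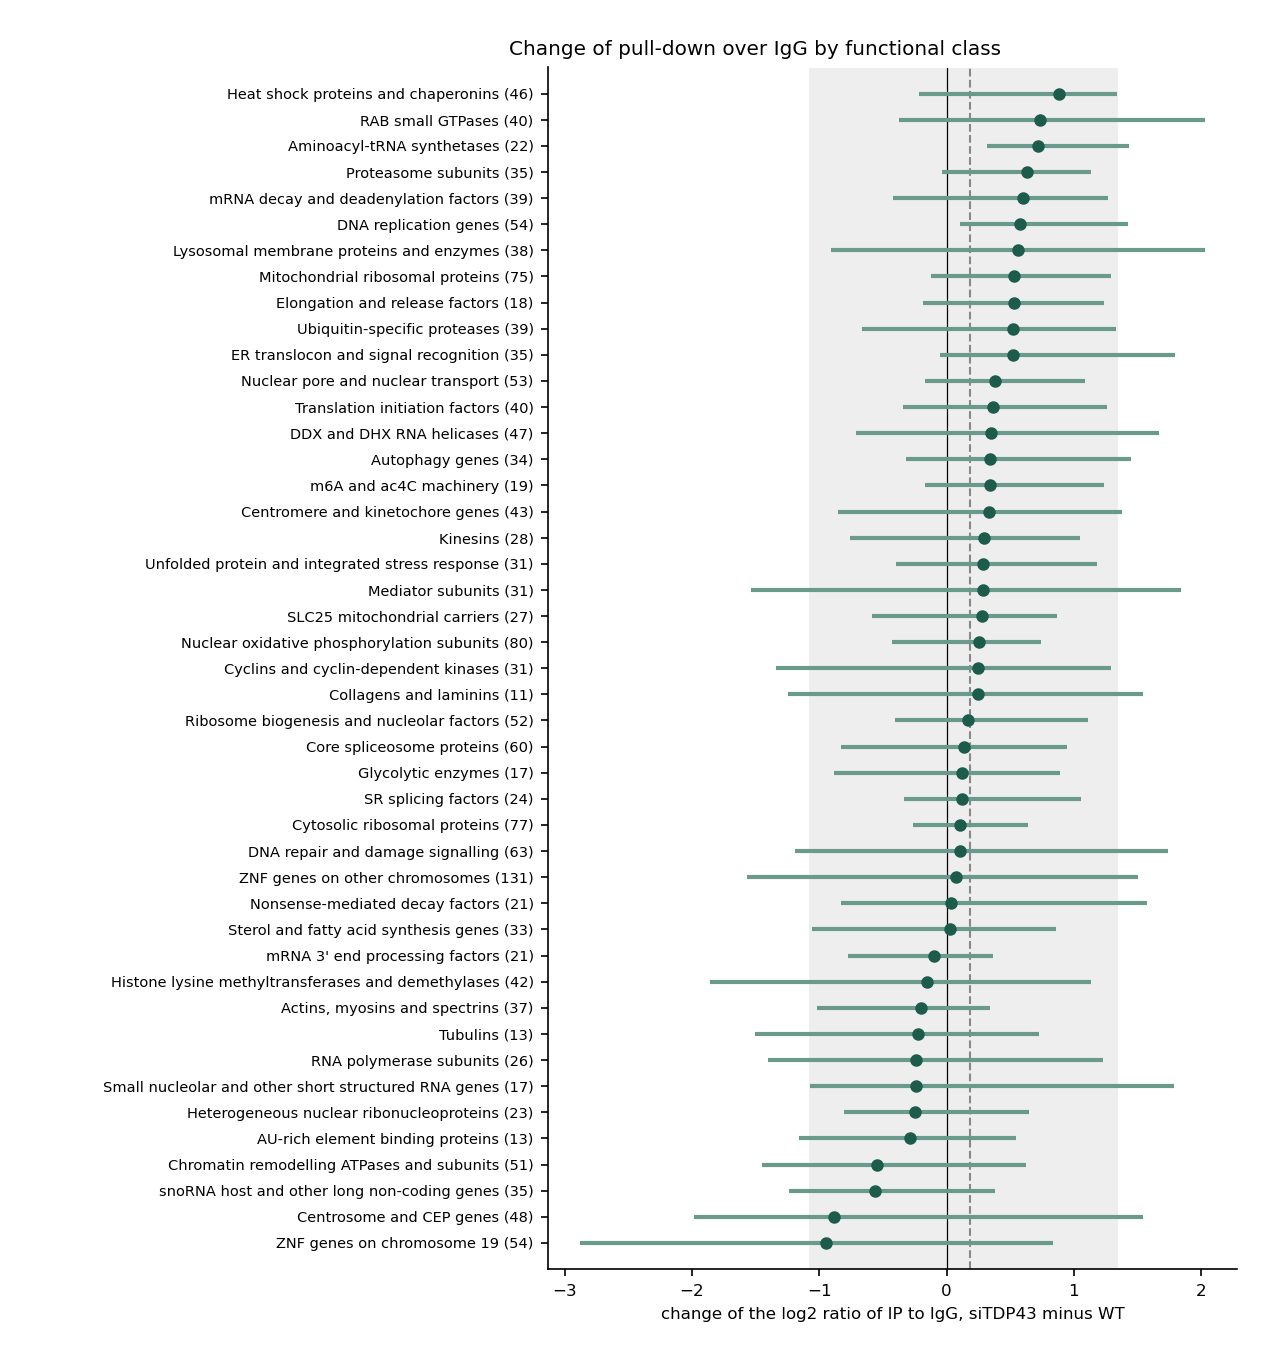
Median (point) and quartiles (line) of the change of enrichment (log2) in the 45 functional classes with at least 10 genes free of the floor, number of genes in brackets. The dashed line is the median of all 9529 genes and the grey band their quartiles; every class median lies inside the band, with heat shock genes at the top and ZNF genes on chromosome 19 at the bottom.

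The 46 functional classes were described by counts and medians, with no test of a class. Every class named below had both higher and lower members. Counts of members called are over those with no group at the floor, to be read against 41.8% higher and 33.8% lower over all genes.

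Chaperones and the protein degradation machinery lay above the all-gene median. Of 46 heat shock genes, 31 (67.4%) were higher and 11 (23.9%) lower, with a class median 0.70 above that of all genes. HSPA14, an HSP70 member that binds ribosomes, rose by 2.29 ± 0.11, from 31.7, 30.2 and 27.5 CPM in WT IP against 192 and 169 in WT IgG to 165, 163 and 170 in siTDP43 IP against 200, 207 and 210 in siTDP43 IgG. HSPA13 (1.74) and DNAJC5 (1.63) rose, while AHSA1 (−2.02), an HSP90 cochaperone, DNAJC2 (−1.74) and HSPB1 (−1.23) fell. Of 35 proteasome subunits 23 (65.7%) were higher and 8 (22.9%) lower, 0.45 above all genes. PSMC6 (1.97), PSMB3 (1.76) and PSMD1 (1.74) rose, whereas PSMC4 (−1.85) and PSMD3 (−1.63) fell.

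The proteasome also held a large fall. PSMB10, an inducible catalytic subunit of the immunoproteasome, changed by −4.58 ± 0.25. It had 52.9, 41.4 and 46.2 CPM in WT IP, 1.94 and 2.68 in WT IgG, 165, 122 and 105 in siTDP43 IP and 158, 159 and 148 in siTDP43 IgG. Its IP level was thus higher after knockdown, and the lower ratio came with a 6.07 log2 higher IgG level.

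Genes of protein synthesis did not move as one group. Aminoacyl-tRNA synthetases, which load amino acids onto tRNA, were all called: 17 of 22 (77.3%) were higher and 5 (22.7%) lower, 0.54 above all genes and 0.25 above with the GC trend of each library removed. MARS (1.96, in positions shared with DDIT3), TARS (1.56) and AARS (1.52) rose, and CARS (−1.10), QARS (−0.997) and KARS (−0.81) fell. Of 75 mitochondrial ribosomal proteins 46 (61.3%) were higher and 17 (22.7%) lower, 0.35 above all genes, from MRPL1 (3.17) and MRPS28 (2.80) to MRPL48 (−2.32) and MRPS15 (−2.82). Cytosolic ribosomal proteins were near the middle, with 34 of 77 higher and 21 lower and a median 0.07 below that of all genes, which was 0.04 above with the GC trend removed.

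The cytosolic ribosomal proteins illustrate how a flat ratio can sit on large movements in both pull-downs: their median IP level was 1.46 log2 units higher after knockdown and their median IgG level 1.34 units higher. The input median of these genes was −0.77. RPS28 was one that fell, by −2.19 ± 0.09, from 2903, 2598 and 2763 CPM in WT IP and 951 and 945 in WT IgG to 1660, 1520 and 1411 in siTDP43 IP and 2475, 2418 and 2294 in siTDP43 IgG. RPL36A (1.79) and RPL23 (1.67) rose, and RPL17 (−1.96) and RPL10 (−1.85) fell. Ribosomal protein genes, GAPDH and EEF1A1 have near-identical processed pseudogenes, so their uniquely aligned reads may be split. Subunits of oxidative phosphorylation had the same form of movement in both pull-downs, at 1.49 in IP and 1.23 in IgG, with 40 of 80 higher and 26 lower.

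Among initiation factors 24 of 40 were higher and 11 lower. EIF2A, EIF3F (2.52) and EIF2B4 (2.12) rose, and EIF5B, EIF3G (−2.67) and EIF3A (−2.08) fell. The translocon and signal peptide machinery of the endoplasmic reticulum had 22 of 35 genes (62.9%) higher and 6 (17.1%) lower, with RRBP1 among them. Its offset from all genes was 0.34, and 0.11 with the GC trend removed. TRAM1, a translocon-associated membrane protein, rose by 2.94 ± 0.14, from 10.99, 13.1 and 12.6 CPM in WT IP and 67.8 and 68.6 in WT IgG to 156, 162 and 146 in siTDP43 IP and 129, 111 and 96.8 in siTDP43 IgG. SEC11C (2.85) and SRP72 (2.40) rose, and KTN1 (−1.797) and OST4 (−0.78) fell.

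DNA replication genes had 33 of 54 members (61.1%) higher and 8 (14.8%) lower, 0.40 above all genes and 0.60 above with the GC trend removed. MCM4, a subunit of the replicative helicase, rose by 2.47 ± 0.09, from 338, 345 and 349 CPM in WT IP and 1615 and 1615 in WT IgG to 486, 418 and 412 in siTDP43 IP and 381, 369 and 366 in siTDP43 IgG. Its IgG level changed more than its IP level. ORC4 (2.82) and GINS4 (2.31) also rose, and PRIM2 (−3.43), RNASEH2B (−2.57) and CLSPN (−1.87) fell. Kinetochore genes were split, with 19 of 43 higher and 17 lower: CENPK rose by 4.73 ± 0.22 and MAD2L1, of the spindle checkpoint, by 2.47 ± 0.10, while PMF1 (−5.52, in positions shared with the read-through gene PMF1-BGLAP) and SPC25 (−3.11) fell.

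RAB GTPases, which direct vesicle traffic, had 21 of 40 members higher and 9 lower, 0.55 above all genes, from RAB6A (2.33) and RAB13 (2.18) to RAB32 (−2.51) and RAB35 (−4.46). That offset was 0.04 once the GC trend of each library was removed. Lysosomal genes were split as 20 of 38 higher and 15 lower. NEU1 (2.97), GLB1 (2.43) and LIPA (2.30), all lysosomal hydrolases, rose, whereas LAMP1, the cholesterol transporter NPC1 (−4.07) and the glycosidases GAA (−3.35) and MAN2B1 (−3.14) fell.

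In sterol and fatty acid synthesis 12 of 33 genes were higher and 12 lower. IDI1 (2.67), an enzyme of cholesterol synthesis, rose, and DHCR7 (−4.08) and ACACA (−2.74) fell. HERPUD1, a gene of the unfolded protein response, rose by 3.31 ± 0.14 although its input level was 2.27 log2 units lower (log2 −2.27). It had 203, 210 and 209 CPM in WT IP and 513 and 522 in WT IgG, and 74.6, 83.97 and 80.5 in siTDP43 IP and 13.95, 19.02 and 27.0 in siTDP43 IgG.

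Centrosome, chromatin and zinc finger genes lay below the all-gene median. Of 48 centrosome and CEP genes 15 were higher and 25 (52.1%) lower, with a median 1.06 below that of all genes. CEP250, a linker between centrioles, fell by −6.87 ± 0.22. It had 651, 700 and 701 CPM in WT IP, 48.9 and 53.6 in WT IgG, 3.72, 3.85 and 3.99 in siTDP43 IP and 25.7, 27.5 and 47.0 in siTDP43 IgG. CEP290 (−4.33, in positions shared with C12orf29) fell too, while HAUS1 (4.17), CEP78 (2.61) and CEP57 (2.59) rose.

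Chromatin remodelling genes had 13 of 51 members (25.5%) higher and 26 (51.0%) lower, 0.73 below all genes. Besides ATRX, CHD3 fell by −3.03 ± 0.16 and BPTF by −2.995, while ARID2 (2.71), SMARCA5 (2.02) and HDAC2 (1.72) rose. The class had a median IP change of −1.31 and a median IgG change of −0.82. Enzymes that write or erase histone lysine marks were at −1.21 and −0.98, with 17 of 42 higher and 19 lower.

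Of 54 ZNF genes on chromosome 19, most of them transcriptional repressors of the KRAB family, 13 (24.1%) were higher and 27 (50%) lower, 1.13 below all genes. ZNF414 (−3.16), ZNF579 (−2.76) and ZNF324 (−2.30) fell, whereas ZNF507 (2.86), ZNF714 (1.19) and ZNF430 (0.94) rose. Another 136 genes of this class were at the floor in some group, 64 of them with no bound in either direction, so the median describes fewer genes than it leaves out. With the pull-down libraries thinned to the smallest total the offset was −0.16. ZNF genes on other chromosomes, 131 of them, had 49 higher and 46 lower, 0.11 below all genes and 0.03 below with the GC trend removed. ZNF84, annotated on chromosome 12 and on an unplaced contig, fell by −6.14 ± 0.39, from 10.002, 11.1 and 13.8 CPM in WT IP and 1.55 and 2.57 in WT IgG to 3.57, 2.43 and 4.98 in siTDP43 IP and 58.0, 29.5 and 47.0 in siTDP43 IgG.

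**Figure D3:**
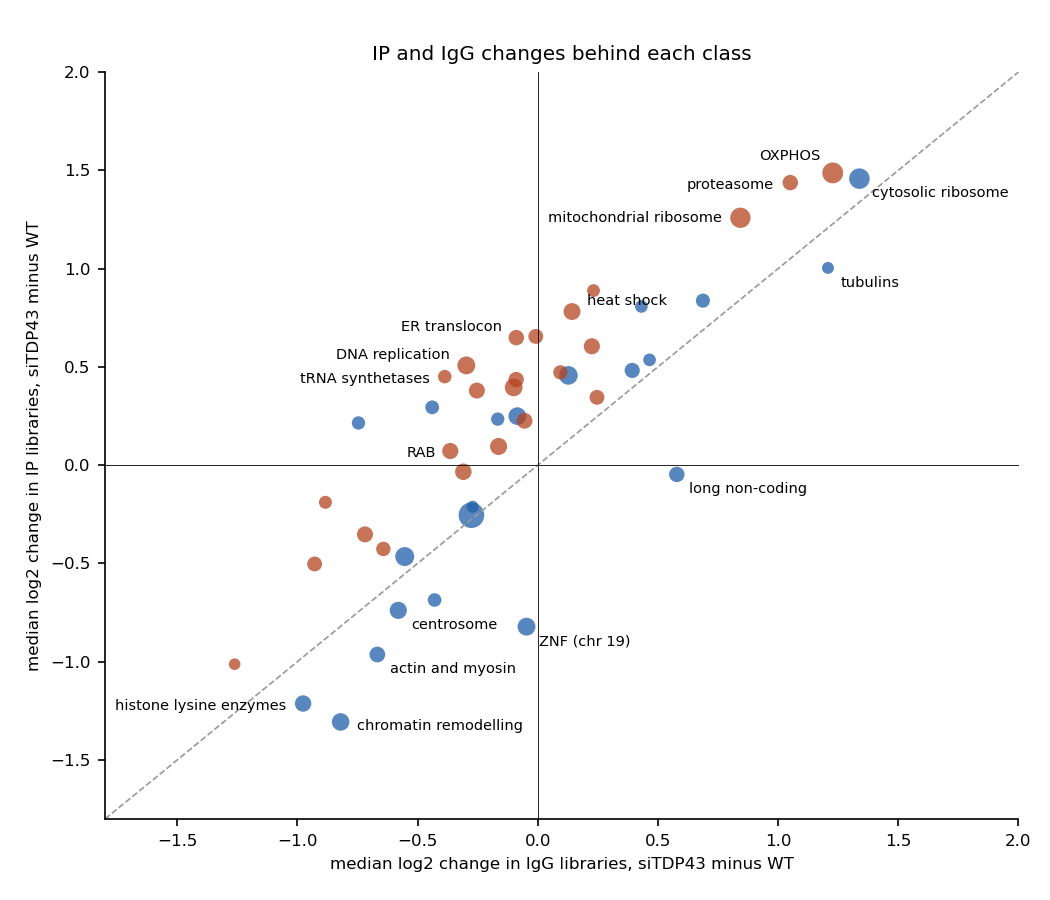
Median change after knockdown in IP (vertical) and in IgG (horizontal) for the 45 classes with at least 10 genes free of the floor, on log2 axes; red classes lie above the all-gene median change of enrichment and blue below, dots grow with the number of genes, and the dashed line marks equal change. Ribosomal, OXPHOS and proteasome genes moved up in both pull-downs, chromatin genes moved down in both, and long non-coding genes moved up in IgG alone.

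Long non-coding RNAs, including hosts of small nucleolar RNA, had 10 of 35 members (28.6%) higher and 20 (57.1%) lower, 0.74 below all genes. Their median IP change was −0.05 and their median IgG change 0.58. LINC00116 (−2.59), later found to hold a small open reading frame, and SNHG9 (−1.75) fell with NEAT1, while SNHG1 (1.77) and SNHG12 (1.58) rose. The class is short of measured members, since another 32 were at the floor in some group.

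RNA-binding and RNA-modifying genes were of interest because the pull-down is directed at an RNA modification. Of 23 hnRNP genes, which bind nascent transcripts, 5 (21.7%) were higher and 11 (47.8%) lower, 0.43 below all genes and 0.68 below with the GC trend removed. HNRPLL (2.23), HNRNPA1 (1.51) and HNRNPC (1.42) rose, and HNRNPUL2 (−2.25), HNRNPH3 (−1.64) and HNRNPA0 (−1.02) fell. The 13 AU-rich element binding genes had 6 higher and 7 lower: CELF1 rose by 1.92, and ZFP36L1 (−1.57) and ELAVL1 (−1.16) fell beside ZFP36L2. For nonsense-mediated decay 9 of 21 genes were higher and 8 lower. MAGOHB (2.09) rose, and UPF2 (−2.41), EIF4A3 (−1.28) and UPF1 (−1.23) fell beside UPF3B.

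Writers, readers and adaptors of m6A and ac4C had 10 of 19 genes higher and 4 lower, 0.16 above all genes and 0.10 above with the GC trend removed. THUMPD1, the adaptor of NAT10 for tRNA, rose by 1.71, as did the m6A reader YTHDC2 (1.47) and the writer subunit WTAP (1.01). ZC3H13, another subunit of the m6A writer complex, fell by −2.99 ± 0.18. It had 7215, 7799 and 7919 CPM in WT IP, 521 and 603 in WT IgG, 35.1, 32.6 and 30.6 in siTDP43 IP and 22.0, 18.6 and 17.1 in siTDP43 IgG, a fall in both pull-downs as in UPF3B and EIF5B. YTHDF1 (−1.84) and YTHDF3 (−1.05) also fell.

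Of the classes not yet described, mRNA decay factors had 20 of 39 genes higher and 11 lower, 0.42 above all genes, and elongation and release factors 10 of 18 and 4, 0.35 above. RNA polymerase subunits had 9 of 26 genes higher and 12 lower, 0.42 below all genes, and actins, myosins and spectrins 9 of 37 and 14, 0.38 below. With the GC trend removed these offsets were 0.13, 0.18, −0.66 and −0.20. Tubulins, 0.40 below all genes, and ubiquitin-specific proteases, 0.34 above, changed sign under that removal. Splicing factors of the spliceosome had 28 of 60 members higher and 21 lower, SR proteins 11 of 24 and 7, DNA repair genes 28 of 63 and 21, ribosome biogenesis genes 25 of 52 and 14, and glycolytic enzymes 8 of 17 and 8. Collagens could hardly be measured, with 11 genes free of the floor and 31 at it. Of the short and small nucleolar RNA genes, 128 were at the floor and 17 were not.

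Genes at the floor were given as bounds, computed against 3 counts in the group at the floor. A group whose mean was below 3 counts a library without being at the floor was also set to 3 counts where a lower level would have widened the bound. All other groups entered at their mean level, with no allowance for the spread between their libraries. Each bound therefore holds for the group means alone. A lower bound could be set for 1865 genes, of which 1129 were bounded above a log2 change of 0, and an upper bound for 682, of which 624 were bounded below 0. For 3089 genes the floor left no bound. The siTDP43 IgG group was alone at the floor in 1792 genes, and WT IgG alone in 479. When the 11 pull-down libraries were thinned to the smallest total, 12844 genes were tested, and siTDP43 IgG was at the floor in 22.0% of them, WT IgG in 15.2%, siTDP43 IP in 10.1% and WT IP in 3.92%.

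**Figure D4:**
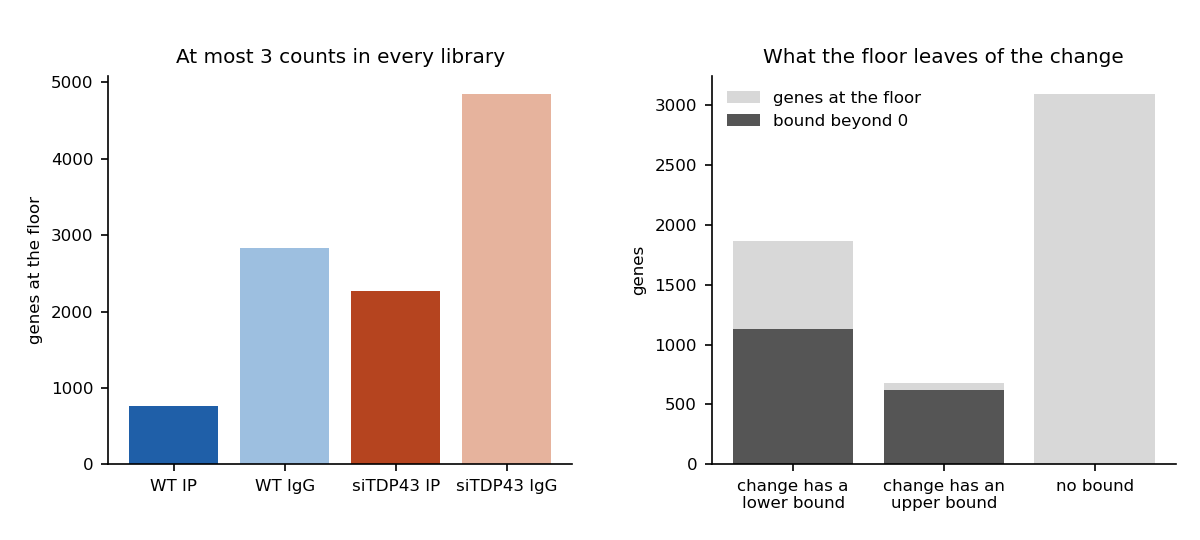
Left, number of tested genes at the count floor in each pull-down group (at most 3 counts in every library of the group); right, genes with a lower bound, an upper bound or no bound on the log2 change of enrichment, with the dark part bounded beyond 0. The siTDP43 IgG bar, 4845 genes, is the tallest on the left, and on the right 3089 genes have no bound.

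The most extreme upper bounds were in COL27A1, ZNF234 and WDR27. COL27A1, a fibrillar collagen gene, had 693, 527 and 572 counts in WT IP, 0 and 0 in WT IgG, 2, 4 and 0 in siTDP43 IP and 6, 42 and 40 in siTDP43 IgG. At the group means its enrichment over IgG was at least 3116-fold lower after knockdown. The siTDP43 IgG counts behind that value were far apart, from 6 to 42. ZNF234 had 290, 354 and 315 counts in WT IP and 0 and 0 in WT IgG, then 22, 4 and 14 in siTDP43 IP and 106, 114 and 150 in siTDP43 IgG. Its enrichment was at least 1643-fold lower at the group means. WDR27 had 179, 174 and 129 counts in WT IP and 2 and 2 in WT IgG, then 5, 10 and 0 in siTDP43 IP and 64, 41 and 48 in siTDP43 IgG. Its enrichment was at least 928-fold lower at the group means. In all of these both the loss in IP and the gain in IgG counted towards the bound.

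High lower bounds rested on an IgG group that went to 0. SCAND3 had 12, 10 and 2 counts in WT IP, 427 and 298 in WT IgG, 66, 64 and 40 in siTDP43 IP and 0, 0 and 0 in siTDP43 IgG. At the group means its enrichment over IgG was at least 527-fold higher after knockdown. FTSJD1, a methyltransferase of the mRNA cap, had 2, 4 and 6 counts in WT IP, 166 and 94 in WT IgG, 66, 60 and 48 in siTDP43 IP and 0, 0 and 0 in siTDP43 IgG. Its enrichment was at least 379-fold higher at the group means.

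The change of enrichment varied with the base composition of the transcripts. In 5 equal bins of genes by exon GC content, from lowest to highest, the median change was 0.93, 0.52, 0.17, −0.20 and −0.55. Higher calls went from 58.3% of the lowest bin to 24.4% of the highest, and lower calls from 20.1% to 49.4%. Median GC was 45.6% in genes called higher, 53.4% in genes called lower and 49.2% in those not called. With a GC trend removed from each library the medians of the bins were 0.19, 0.15, 0.23, 0.22 and 0.34, and 6131 of the 7207 calls (85.1%) were the same while 101 were opposite. The trend was fitted on these same genes, so closer bin medians follow from the removal itself. The part of GC content in single genes was not tested beyond this refit, in which RBBP6 was at −4.88, ZFP36L2 at −2.57 and RRBP1 at −4.93.

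Exon length was of less account, with bin medians between 0.10 and 0.28. By input level in WT, the bin of lowest genes had a median of −0.65 and the following bins 0.02, 0.21, 0.39 and 0.41. The motif UCCCAGCU, searched as TCCCAGCT on the transcript strand of annotated exons with junctions left out, was present in 19.1% of the genes called higher, 21.2% of those called lower and 20.2% of all. In the panel only RRBP1 held it, in a coding stretch of exon 10 (chr20:17608211-17608234, minus strand) with the motif in capitals.

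RRBP1 motif site: cggagaacTCCCAGCTcacagaga

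Several transcripts that were abundant in WT IP and fell had long stretches of purines, a feature looked for after their values had been seen. It is therefore given with no test. Runs of at least 12 A or G in a row were counted in the exons of every gene as bases per kilobase. The median over all genes was 10.8, while UPF3B had 124, EIF5B 91.7, ZC3H13 67.2, RBBP6 42.9, ATRX 42.2, CEP250 37.8 and RRBP1 35.9. LAMP1 had 0, while ZFP36L2 with 15.2 and EEF1A1 with 12.2 were somewhat above the all-gene median. RPS28 and GAPDH, also abundant in WT IP, had 0 and 18.6. RAB13 had 102, and its enrichment rose. The stretch of 24 coding bases richest in such runs is printed for each of 4 genes, with the runs in capitals. For ZFP36L2 the coding stretch richest in cytidine is printed instead, with runs of at least 3 C in capitals.

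EIF5B exon 2, chr2:99976783-99976806, plus strand: AAAAGGGAAAAAGAAAAAAGAGAA

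RBBP6 exon 17, chr16:24580820-24580843, plus strand: AGAAAAAGAAGAAAAGGGGAGGAA

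RRBP1 exon 3, chr20:17640960-17640983, minus strand: tcGAGAAGAAAAAGAAGGAGAAAA

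UPF3B exon 7, chrX:118975193-118975216, minus strand: GAGAGAAGAAAAGAGAGAAGAAAG

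ZFP36L2 exon 2, chr2:43452730-43452753, minus strand: ctcgCCCaCCCCgcgCCCagCCCC

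A purine run holds no cytidine, the base that ac4C modifies, but a gene with such runs can hold cytidine elsewhere, as RRBP1 does. Whether ac4C was present in these transcripts was not tested. Across all genes, those with more purine runs stood higher over input in both WT pull-downs. From the lowest to the highest of 5 bins, the median log2 ratio of WT IP to WT input was −0.51, −0.36, −0.20, 0.10 and 0.58, and that of WT IgG to WT input was −0.54, −0.36, −0.15, 0.15 and 0.69. In the 191 genes of the top 2% these ratios were 1.48 and 1.22. In siTDP43 the ratios of IP to input were −0.11, −0.43, −0.30, −0.11 and 0.18, with 0.76 in the top 2%, and those of IgG to input were −0.10, −0.64, −0.52, −0.35 and 0.11, with 0.65 in the top 2%.

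The spread over bins was thus present in IP and IgG alike, and narrower in siTDP43 than in WT. In siTDP43 the ratios did not rise throughout, unlike in WT. There the lowest bin stood above bins 2 and 3 in IP and above bins 2 to 4 in IgG. The change of enrichment itself had medians of 0.02, 0.28, 0.23, 0.27 and 0.10 over the bins and −0.15 in the top 2%. Of those 191 genes 30.9% were called higher and 40.3% lower, against 41.8% and 33.8% of all genes.

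**Figure D5:**
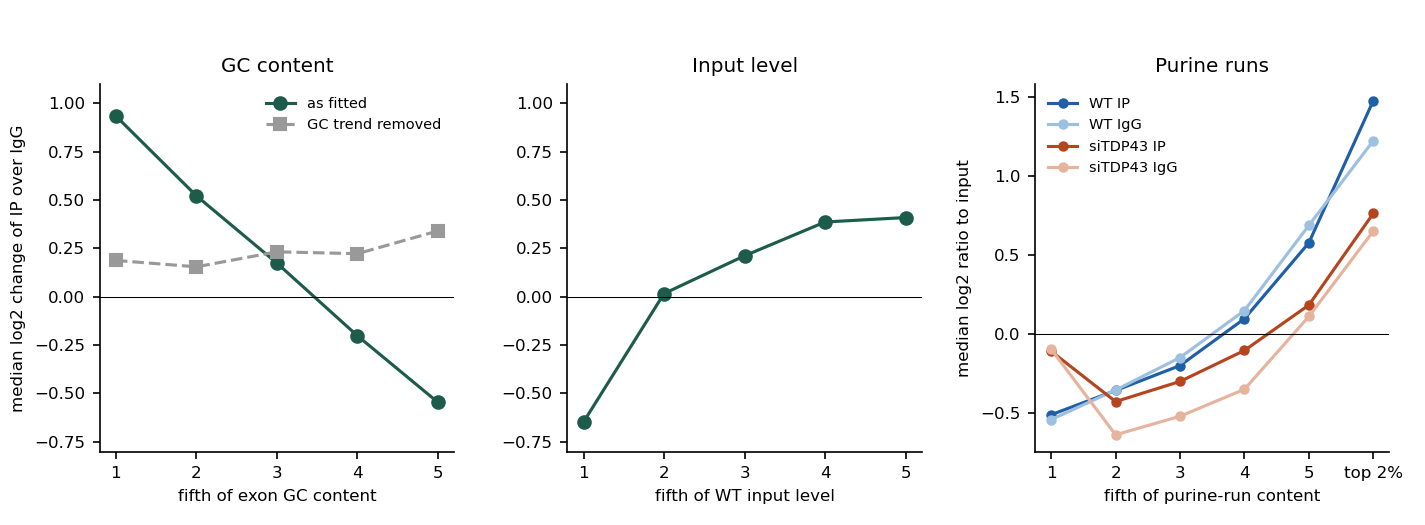
Medians over genes grouped into 5 equal bins, from lowest (1) to highest (5): the change of enrichment (log2) by exon GC content and by WT input level, and the log2 ratio of each pull-down to input by content of purine runs, with the top 2% of genes as a last point. The GC line runs from 0.93 to −0.55. It is nearly level once the GC trend of each library is removed (grey squares), which follows from the removal itself. All 4 pull-downs stand highest in the genes with most purine runs.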

How the data were processed

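HEK293T poly(A) RNA was measured as input, anti-ac4C IP and IgG pull-down in WT and siTDP43 cells; groups came from the sample titles. The authors deposited raw counts per gene: libraries were made from low RNA amounts with a SMART-seq2 protocol, trimmed with Trim Galore 0.6.7, aligned to hg19 with STAR 2.7.10a and counted with featureCounts 2.0.2 (versions per the submitters' processing notes). The labels also name a mouse build, but the gene positions in the table are those of hg19. The annotation release, strand and pair settings are not given in the sources used here. From 81.3 to 95.9% of counts between 1 and 20 were even, which points to mates counted separately, and overlapping genes cannot be told apart. Without molecular identifiers, floors cover counting error alone.

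Counts of 17 libraries were fitted together in edgeR 4.0.16 (R 4.3.3) with TMM, filterByExpr at a minimum count of 10 and the two-sided quasi-likelihood F test of (siTDP43 IP over IgG) against (WT IP over IgG), adjusted by Benjamini-Hochberg over all genes tested, with calls at 0.05. Calls within a genotype also needed a fold change above 2. Of 23368 genes, 4188 had no count. Named genes were the 7 panel transcripts, the 10 largest rises and falls among genes averaging at least 100 counts in each pull-down group with no overlap of the ratios, up to 3 in each direction per class averaging at least 20 counts, and the 3 most extreme bounds each way; some that these rules give are not reported here. Classes, members and lists were chosen with earlier results of these data known. Exon sequence came from the reference genome at the table's positions.

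No pull-down library duplicated another (chi-square per degree of freedom 3.56 to 9.17 between replicates). In simulated counts for this contrast, with 14997 genes and 200 of them changed, 87% of 4-fold and 63% of 2-fold changes were recovered, and 2.60% of calls were false. The changed genes were drawn from genes free of the floor and not among the lowest in mean level. In the data 75.6% of genes free of the floor were called, so these rates need not hold for it. The alternatives were DESeq2 1.42.0, edgeR with DESeq2 size factors, scaling by total counts, other filters and floors, other sets of libraries, replicate blocks, glmTreat, limma 3.58.1 on log2 values, and each library left out. Removal of a GC trend and thinning to 3013989 counts were added after the data were seen.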

Additional observations from a re-analysis of the deposited data

Results flagged for a closer look

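For 20 of the genes in the panel and among the largest rises and falls, the log2 ratio of IP to IgG had opposite signs in the genotypes. The edgeR adjusted p was under 0.05 in each genotype and for the change itself. The largest rises and falls were chosen from genes with a called change, so for them that last point was fixed by the choice. Choosing large changes also favours opposite signs. Over all 9529 genes with no group at the floor, 4.62% turned from enriched to depleted and 4.91% from depleted to enriched. Those shares needed more than 2-fold in each genotype.

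Positive in WT and negative in siTDP43 were NEAT1 (change −6.38), RRBP1 (−5.56), CEP164 (−5.13), SEZ6L2 (−4.86), ERICH1 (−4.52), ATRX (−4.50), RBBP6 (−4.48), C12orf32 (−4.43), TRAF3IP1 (−4.36), ZFP36L2 (−2.96) and LAMP1 (−2.13). RBBP6 and ATRX were only slightly below IgG in siTDP43, at −0.34 and −0.48, and the RBBP6 libraries overlapped there. C12orf32 was less than 2-fold above IgG in WT, at 0.91, and stood at −3.52 in siTDP43.

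Negative in WT and positive in siTDP43 were TFB1M (3.99), PBK (3.93), GALNT11 (3.91), EIF2A (3.51), PPA2 (3.33), CSE1L (3.31), ASNSD1 (3.23), GUCY1B3 (3.22) and EEF1A1 (1.82). EEF1A1 and GUCY1B3 were less than 2-fold above IgG in siTDP43, at 0.42 and 0.43. CSE1L, the export receptor of importin alpha, went from −1.67 to 1.64.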

How the results depend on the processing

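The 32 other settings left most calls in place. The median change over all genes with no group at the floor, 0.18, was −0.0440 with DESeq2, −0.0455 with DESeq2 size factors and 0.0646 in the 5028 genes with a mean of at least 50 counts in every pull-down group; these settings change the scale or the genes. Tested against a 2-fold change, 2282 genes were higher and 1908 lower, or 3507 and 2568 of all tested. With the floor at 10 counts, 1540 genes were enriched in siTDP43 IP and 299 turned from depleted to enriched. With a mean of at least 50 counts, 2060 genes were higher and 1855 lower, WT IP had 684 enriched and 950 depleted, siTDP43 IP had 371 and 726, and 128 turned from enriched to depleted and 67 from depleted to enriched. Fewer genes entered these last settings.

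Leaving out each library gave 3782 to 3976 higher and 3029 to 3242 lower genes, a median of 0.14 to 0.20, and 407 to 445 and 432 to 487 turned genes. Replicate numbers did not pair the libraries (residual correlations of same-numbered libraries −0.0415 to 0.1002), and with the number as a replicate block 3955 genes were higher and 3220 lower, with 98.8% of the 7207 calls kept; the block within genotype kept 97.97%.

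Of the 46 class offsets from all genes, 14 had the other sign with the GC trend removed, 12 of 43 at a mean of 50 counts, 6 of 45 with the floor at 10 counts, 4 of 45 with libraries thinned, and at most 6 without a single library. Of offsets over 0.3 in size, the 6 replication-dependent histones ranged from −0.62 to 0.77 when single libraries were left out, the latter without WT IgG replicate 2, and were at 0.24 with the GC trend removed. Under that removal ubiquitin-specific proteases went to −0.24 and tubulins to 0.0651 (0.0394 at a mean of 50 counts), and lysosomal genes were at −0.0763 with the floor at 10 counts and −0.38 at a mean of 50 counts. Of 286 named genes, 32 lost their call under some setting and 4 turned, all with the GC trend removed: EEF1A2 (0.00482), EIF5A (0.0607), TIAL1 (−0.14) and TIA1 (−0.44). The cause was not tested.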
